A study of Mus musculus with 16 samples.

Results

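The cytochrome P450 genes of the Cyp1, Cyp2 and Cyp3 families, the families that carry out most drug and xenobiotic metabolism, were measured in mouse liver by RNA sequencing. Members were taken by symbol, as Cyp1, Cyp2 or Cyp3 followed by a single letter and a number, which gave 59 of the 50559 gene symbols of the deposited table, in 16 subfamilies. The 25 pseudogene symbols, as well as Cyp2ab1, Cyp3a41a and Cyp3a41b, whose symbols have another form, were left out. The study asked how lowering the amount of ketohexokinase (KHK), the kinase that phosphorylates fructose, compares with inhibiting its activity during high-fat feeding. The 16 libraries came from 16 male C57BL/6J mice, 4 in each of 4 groups, which started their diet at 6 weeks of age, stayed on it for 10 weeks and were treated in the last 4 of those weeks. The LFD mice ate a low-fat diet, which the labels call chow, and the HFD mice ate a high-fat diet. Both groups were given a control siRNA against luciferase, 10 mg/kg at intervals of 2 weeks, and were gavaged with methylcellulose, the vehicle of the inhibitor. The HFD + siRNA mice ate the high-fat diet and were given siRNA against KHK at 20 mg/kg instead of the luciferase siRNA, so that the siRNA dose differed between the groups, with the same vehicle. This siRNA is conjugated to GalNAc, a sugar that directs it to hepatocytes. The HFD + Inhib mice ate the high-fat diet and were given luciferase siRNA together with PF-06835919, an inhibitor of KHK, by gavage at 15 mg/kg 2 times a day. Some mice were given insulin and others saline shortly before the livers were taken, and the labels do not say which. An effect of insulin on single libraries therefore cannot be told apart from variation between mice. If insulin was spread unevenly over the groups, its effect cannot be told apart from the group differences either.

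Cytochromes P450 are heme enzymes of the endoplasmic reticulum that insert an oxygen atom into lipophilic drugs, toxins, steroids, fatty acids and bile acids, with electrons from NADPH passed on by the reductase Por. In the liver most of these genes are expressed in hepatocytes, many of them near the central vein. Their transcription is controlled by the receptors CAR (Nr1i3), PXR (Nr1i2) and AHR (Ahr), for which Cyp2b10, Cyp3a11 and Cyp1a1 are the textbook targets, and in rodents by the male and female patterns of growth hormone release, which make some members predominant in one sex.

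The expected counts, which the program RSEM estimates by dividing reads that match several genes between them, came to totals of 25572883 to 35125005 in the LFD libraries (median 28920038), 24317111 to 35820234 in HFD (median 26714482), 28942052 to 33514313 in HFD + siRNA (median 30485808), and 27704386 to 32245606 in HFD + Inhib (median 30468092). Levels are given as CPM, counts scaled to a common library total after TMM normalization. Khk itself stood at 214, 233, 349 and 269 CPM in the LFD libraries, 251, 322, 233 and 251 in HFD, 11.8, 9.14, 18.1 and 11.5 with the siRNA and 112, 152, 94.6 and 120.5 with the inhibitor. The siRNA libraries were 20.9-fold below HFD (log2 fold change -4.38 ± 0.23, adjusted p = 1.88e-08), and the inhibitor libraries 2.21-fold below (log2 fold change -1.14 ± 0.20, adjusted p = 0.000752). Adjusted p-values here and in the rest of the text are from the quasi-likelihood test of edgeR. They were adjusted by Benjamini-Hochberg over 18335 genes tested, with a threshold of 0.05. Log2 fold changes carry standard errors calculated back from the same test. The labelled tissue was checked against 5 hepatocyte markers, which summed to between 69272 and 88198 CPM in LFD, 54963 and 69566 in HFD, 62793 and 74833 in HFD + siRNA, and 37719.5 and 41375 in HFD + Inhib, with albumin (Alb) as the most abundant in every library. Markers of pancreas and kidney summed to at most 6.15 and 0.0989 CPM.

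The 59 members together took between 0.949% and 1.71% of the counts of a library, and their summed level was 10175, 16649.8, 14730.0 and 16572 CPM in the LFD libraries, 14353, 11087, 13355 and 14656 in HFD, 11546, 12995, 12455 and 11539.9 in HFD + siRNA, and 11121, 14809.6, 13113 and 13693 in HFD + Inhib. LFD replicate 1 was the lowest of all 16 libraries. Cyp2e1, which oxidizes ethanol, acetaminophen and small solvents, was the most abundant member in every library but LFD replicates 1 and 2, where Cyp3a11 was slightly higher: 1949, 3931, 3719 and 4529.5 CPM in LFD, 5901, 3929, 5114 and 6191 in HFD, 3199.7, 3906, 3512 and 2866 with the siRNA and 5157, 7193, 6195 and 6746 with the inhibitor. Without it, the other 58 members summed to 10999.5 ± 1978 CPM in LFD, 8079 ± 622 in HFD, 8763 ± 327 with the siRNA and 6861 ± 679.6 with the inhibitor (mean ± SD, n = 4). Per kilobase of the longest coding transcript and averaged over all libraries, the members at the highest level were Cyp2e1 (2524 CPM per kb), Cyp3a11 (645), Cyp2d9 (455), Cyp2d26 (373), Cyp2c29 (368), Cyp2f2 (313), Cyp2d10 (299.7) and Cyp2j5 (248). This order differed by group: Cyp3a11 was at 1199.8 CPM per kb in LFD and 282 in HFD + siRNA, where it was below Cyp2d9 (550.2), Cyp2d26 (484), Cyp2c29 (419), Cyp2c50 (336), Cyp2f2 (311) and Cyp2d10 (294). At the other end, 15 members were too low to be tested, among them 5 of the 8 Cyp2j genes, 3 of the 7 Cyp3a genes, 2 of the 5 Cyp2b genes and 2 of the 15 Cyp2c genes, and none of these 15 exceeded 21 counts in any library. The others were Cyp2d34, Cyp2t4 and Cyp2w1.

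**Figure D1:**
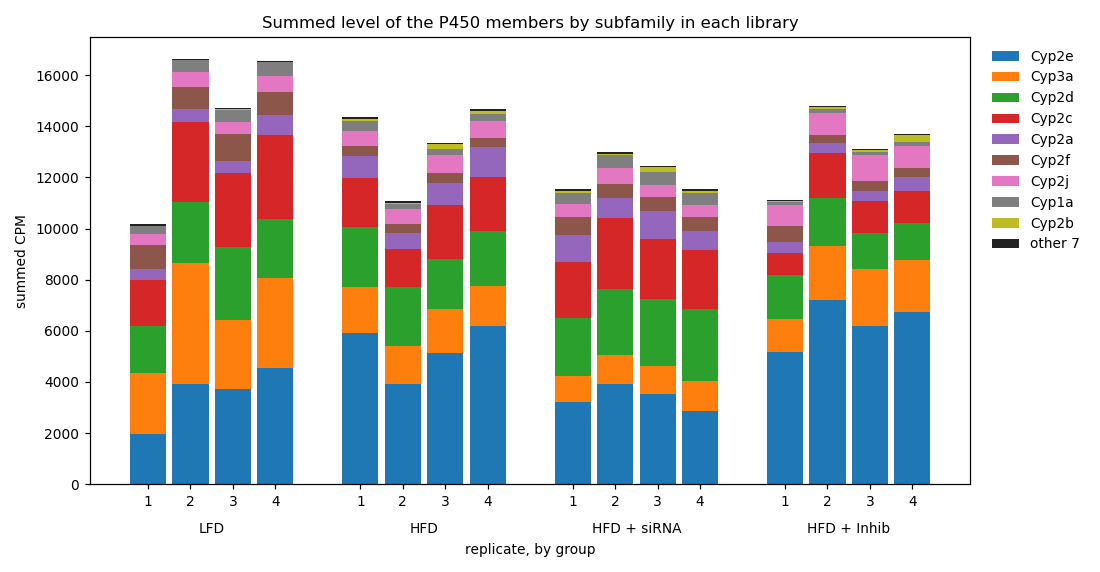
Summed level in CPM (bars start at 0) of the P450 members in each of the 16 libraries, stacked by subfamily, with the 7 smallest subfamilies drawn together as other 7. Cyp2e (Cyp2e1 alone) is the largest block in all libraries but LFD replicates 1 and 2, where Cyp3a is larger, LFD replicate 1 is the lowest bar at 10175 CPM, and the Cyp3a block is taller in every LFD library than in any other.

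Of the 44 members tested, 19 changed in HFD versus LFD, which is 43.2% of them beside 18.4% of all genes tested. Of these, 7 were higher and 12 lower, where 9.58% and 8.8% of all genes were. In HFD + siRNA versus HFD 9 changed, 20.5% beside 11.7% of all genes, with 5 higher (all genes 5.2%) and 4 lower (6.55%). In HFD + Inhib versus HFD 15 changed, 34.1% beside 18.2%, with 4 higher (all genes 9.8%) and 11 lower (8.42%). Between the 2 treatments 24 members differed, 54.5% beside 33.8% of all genes, with 7 higher in the inhibitor group (all genes 17.3%) and 17 lower (16.6%). The median log2 fold change of the tested members was -0.18, 0.18, -0.35 and -0.50 in these 4 comparisons, and that of all genes was -0.01, 0.02, -0.004 and -0.04. The groups did not overlap for 18, 14, 11 and 22 members, beside 20.4%, 20.6%, 23.3% and 32.5% of all genes. The first 3 comparisons share the HFD libraries, so that their values are set side by side and not correlated. In bulk liver, a smaller share of a cell type and less RNA per cell of that type cannot be told apart.

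**Figure D2:**
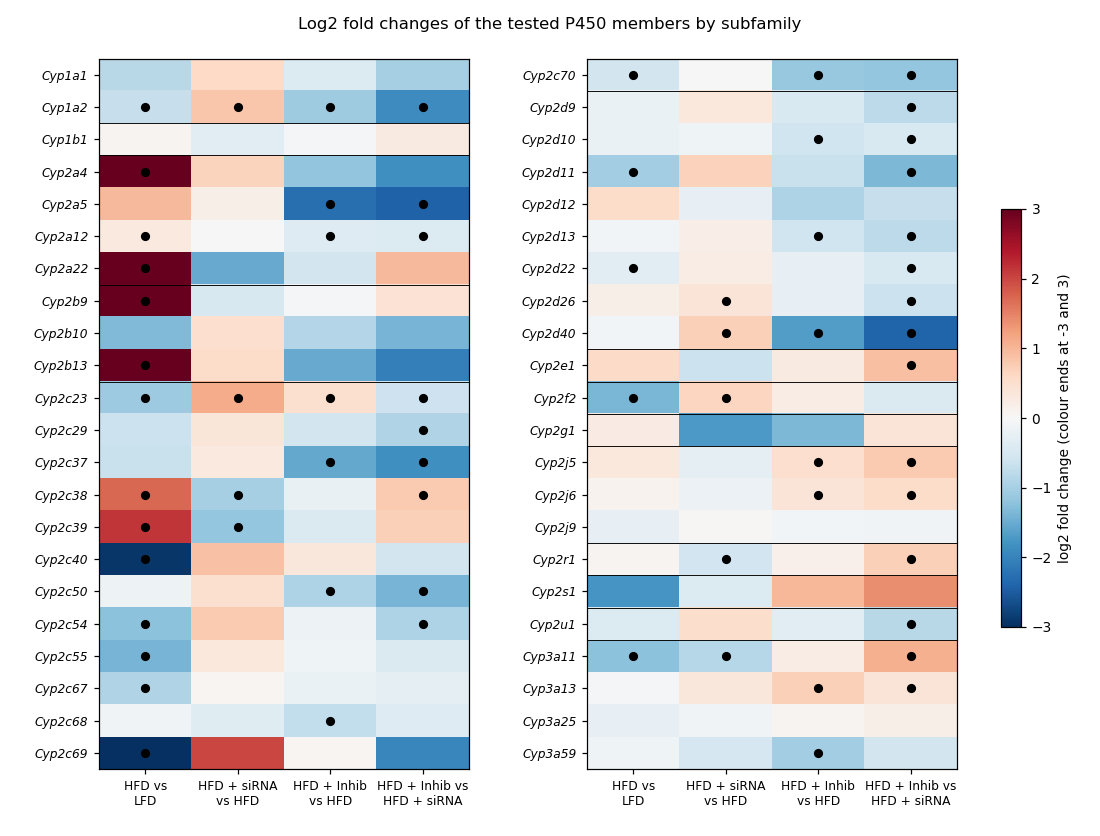
Log2 fold changes of the 44 tested members (rows, in order of subfamily, lines between subfamilies) in the 4 comparisons (columns), as colours that end at -3 and 3, with a black dot where the adjusted p is under 0.05. The dark red cells in the first column belong to Cyp2a4, Cyp2a22, Cyp2b9 and Cyp2b13, and the last column holds dots for 7 of the 8 tested Cyp2d genes.

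The largest differences between HFD and LFD were increases in genes of the Cyp2b and Cyp2a subfamilies, which lie together on chromosome 7. Cyp2b9, a gene that is predominant in female mouse liver, was at 0.0838, 1.003, 0.418 and 0.791 CPM in LFD and 103, 39.9, 199 and 119 CPM in HFD. No HFD library came near the LFD range, and the increase was 196-fold (log2 fold change 7.61 ± 0.94, adjusted p = 0.000109). Cyp2b13, its closest relative and also predominant in females, had no counts in any LFD library and 2.12, 0.455, 2.52 and 1.001 CPM in HFD, at least 14.5-fold higher than the level of 3 counts per LFD library (0.105 CPM, adjusted p = 0.0112). Cyp2b13 shares 27.3% of the 50-base words (all stretches of 50 bases) of its transcripts with other genes, and Cyp2b9 shares 10.8% of its own with Cyp2b13, so that reads of the far more abundant Cyp2b9 can be assigned to Cyp2b13, and their part in its level was not tested. Cyp2b10, the classical gene induced by phenobarbital through CAR, did not share this direction: it stood at 0.671, 4.73, 3.26 and 3.99 CPM in LFD and 1.29, 0.942, 1.29 and 1.60 in HFD (log2 fold change -1.32 ± 0.53, adjusted p = 0.0946). LFD replicate 1 lay below the HFD libraries and the other LFD libraries lay above them, and without LFD replicate 1 the difference passed the test (adjusted p = 0.0294). Cyp2b19 and Cyp2b23 were not tested, with at most 2 counts in a library.

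In the Cyp2a subfamily, 3 of 4 members were higher in HFD. Cyp2a4, a steroid 15-alpha-hydroxylase predominant in females, went from 1.09, 0, 0.132 and 0.149 CPM to 7.94, 16.1, 14.9 and 14.2 CPM, 42.3-fold (log2 fold change 5.40 ± 1.30, adjusted p = 0.00986), and Cyp2a22 from 0.355, 1.31, 0.909 and 2.27 to 43.1, 20.6, 57.7 and 57.5 CPM, 36.2-fold (log2 fold change 5.18 ± 0.64, adjusted p = 0.000109). In both genes every HFD library was above every LFD library, and the LFD values rest on few counts, at most 25.9 for Cyp2a4 and 68.9 for Cyp2a22 in a library. For Cyp2a4 the LFD mean of 0.342 CPM rests mostly on replicate 1, and the LFD median was 0.141 CPM. The size of its fold change therefore depends on that library. Cyp2a12, a testosterone 7-alpha-hydroxylase, was far more abundant and rose little, from 278, 331, 324 and 371 CPM to 389, 387, 421 and 409 CPM (log2 fold change 0.30 ± 0.09, adjusted p = 0.0337). Cyp2a5, the coumarin 7-hydroxylase, overlapped between the groups, with 125, 195, 139 and 389 CPM in LFD and 391, 192, 370.4 and 701 in HFD (log2 fold change 0.96 ± 0.43, adjusted p = 0.128, and 0.0248 without LFD replicate 4). Cyp2a4 and Cyp2a5 are close copies: 36.1% of the 50-base words of Cyp2a4 transcripts also occur in Cyp2a5, and 20.2% of those of Cyp2a22 occur in Cyp2a12, so that the division of reads within each pair is uncertain. The sum of Cyp2a4 and Cyp2a5 was 212 ± 121 CPM in LFD and 427 ± 211 in HFD, and that of Cyp2a12 and Cyp2a22 was 327 ± 38.6 and 446 ± 32.3 (mean ± SD, n = 4).

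These genes come in close pairs with unlike levels on the high-fat diet, and their promoters are shown to let the pairs be compared base by base. The windows run from 250 bases before to 50 bases after the RefSeq transcription start (build GRCm38.p6), 5′ to 3′ on the strand of the gene. Capitals mark matches, on either strand, to 5 motifs: the TATA box TATAAA, the STAT5 motif TTCNNNGAA, the nuclear receptor half-site AGGTCA, the AHR core GCGTG and the C/EBP motif TTGCNNAA. No marked matches overlap.
Cyp2b9 (chr7:26173159-26173458, plus strand): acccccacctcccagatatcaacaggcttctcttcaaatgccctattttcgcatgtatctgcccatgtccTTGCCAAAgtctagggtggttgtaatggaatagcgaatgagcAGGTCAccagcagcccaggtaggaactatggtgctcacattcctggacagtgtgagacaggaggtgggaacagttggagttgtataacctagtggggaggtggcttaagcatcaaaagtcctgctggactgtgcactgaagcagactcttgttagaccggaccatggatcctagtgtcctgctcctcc
Cyp2b13 (chr7:26061245-26061544, plus strand): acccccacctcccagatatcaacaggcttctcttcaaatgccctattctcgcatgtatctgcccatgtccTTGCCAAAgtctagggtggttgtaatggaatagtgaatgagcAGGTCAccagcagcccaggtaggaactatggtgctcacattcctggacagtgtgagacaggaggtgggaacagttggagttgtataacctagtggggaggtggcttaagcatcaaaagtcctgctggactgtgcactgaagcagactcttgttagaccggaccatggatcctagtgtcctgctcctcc
Cyp2b10 (chr7:25897408-25897707, plus strand): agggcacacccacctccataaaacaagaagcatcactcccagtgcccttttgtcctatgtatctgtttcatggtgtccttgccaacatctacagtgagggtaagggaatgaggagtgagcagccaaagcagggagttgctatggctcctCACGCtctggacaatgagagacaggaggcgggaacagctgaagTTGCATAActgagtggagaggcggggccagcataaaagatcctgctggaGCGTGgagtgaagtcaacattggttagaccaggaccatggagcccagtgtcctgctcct
Cyp2a4 (chr7:26306942-26307241, plus strand): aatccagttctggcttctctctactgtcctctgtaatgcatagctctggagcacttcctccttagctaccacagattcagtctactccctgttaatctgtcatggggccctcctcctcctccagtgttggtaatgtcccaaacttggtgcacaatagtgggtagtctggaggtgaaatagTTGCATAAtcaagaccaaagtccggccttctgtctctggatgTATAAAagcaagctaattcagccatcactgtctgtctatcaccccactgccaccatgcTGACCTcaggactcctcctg
Cyp2a5 (chr7:26835089-26835388, plus strand): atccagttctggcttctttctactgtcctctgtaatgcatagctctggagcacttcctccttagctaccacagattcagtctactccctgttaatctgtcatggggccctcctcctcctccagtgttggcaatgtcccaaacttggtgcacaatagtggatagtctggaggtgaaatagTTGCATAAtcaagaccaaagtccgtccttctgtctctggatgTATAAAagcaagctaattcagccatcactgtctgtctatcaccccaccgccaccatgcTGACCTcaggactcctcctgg
Cyp2a22 (chr7:26939337-26939636, minus strand): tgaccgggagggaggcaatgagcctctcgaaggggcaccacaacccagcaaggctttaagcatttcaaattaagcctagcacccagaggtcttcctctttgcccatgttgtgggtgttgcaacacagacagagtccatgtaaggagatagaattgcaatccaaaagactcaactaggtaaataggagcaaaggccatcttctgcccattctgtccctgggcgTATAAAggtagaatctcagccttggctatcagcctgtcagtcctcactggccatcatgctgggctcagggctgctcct
Cyp2a12 (chr7:27028840-27029139, plus strand): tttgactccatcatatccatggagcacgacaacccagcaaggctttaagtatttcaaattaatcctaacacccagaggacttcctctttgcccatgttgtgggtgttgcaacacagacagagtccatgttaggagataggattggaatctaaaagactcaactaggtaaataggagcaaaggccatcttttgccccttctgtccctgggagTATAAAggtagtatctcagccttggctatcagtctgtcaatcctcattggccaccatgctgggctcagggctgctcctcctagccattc

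The windows of Cyp2b9 and Cyp2b13 were identical at 298 of 300 bases, and both hold a C/EBP match and a half-site. The window of Cyp2b10 was identical to that of Cyp2b9 at 80.1% of 286 aligned bases, and holds 2 matches to the AHR core and a C/EBP match at another place. The windows of Cyp2a4 and Cyp2a5 were identical at 294 of 299 aligned bases (98.3%) and hold the same matches, a C/EBP match, a TATA box and a half-site, while the fitted change of Cyp2a4 was 42.3-fold and that of Cyp2a5 was 1.95-fold. Those of Cyp2a22 and Cyp2a12 were identical at 89.9% of 288 aligned bases and share a TATA box. Whether the fold changes differ within a pair was not tested, and that of Cyp2a4 depends on LFD replicate 1, as given above. Of the 59 members, 50 had a promoter in the table. A TATA box was found in 26 of these 50 genes beside 13.6% of all 32851 promoters, a C/EBP match in 14 beside 10.8%, a half-site in 18 beside 16.3%, the AHR core in 9 beside 32.4% and the STAT5 motif in 2 (Cyp2j11 and Cyp2j12, neither of them tested) beside 8.3%. Members were counted by gene if any of their windows matched, while the shares of all promoters are over single windows, so the units differ. Close copies among the members were counted separately. A match describes letters in the window and is not evidence of binding.

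**Figure D3:**
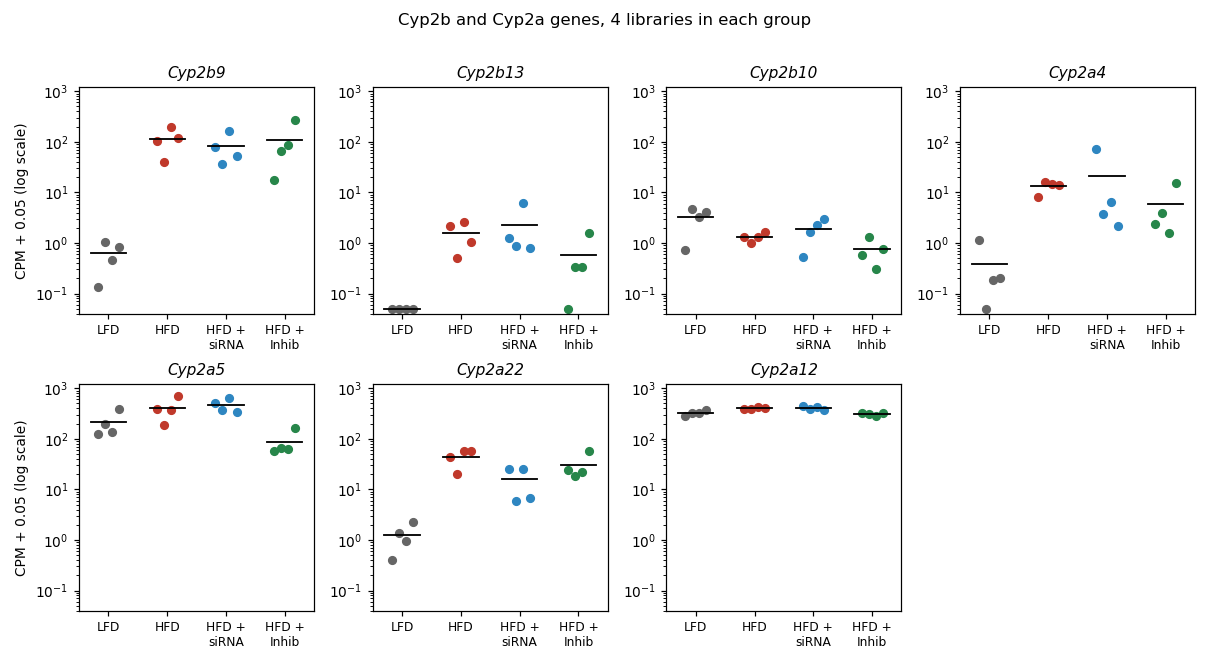
CPM + 0.05 on a log scale in each of the 4 libraries of each group, for the Cyp2b and Cyp2a genes named in the text, with black lines at the group means. Cyp2b9, Cyp2a4 and Cyp2a22 are higher in every HFD library than in any LFD library, Cyp2b13 has no counts in LFD, and Cyp2a5 is lowest in the HFD + Inhib group.

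Neither treatment changed Cyp2b9 by a margin that passed the test. It was at 78.4, 35.7, 166 and 52.2 CPM in HFD + siRNA (log2 fold change versus HFD -0.48 ± 0.64, adjusted p = 0.684) and 17.7, 65.8, 86.7 and 274 CPM in HFD + Inhib (-0.05 ± 0.64, adjusted p = 0.9704), and all of these libraries were above the highest LFD library. Within both treated groups the libraries spread widely, from 35.7 to 166 and from 17.7 to 274 CPM. Cyp2a22 was at 25.0, 5.81, 25.2 and 6.62 CPM with the siRNA (log2 fold change -1.51 ± 0.51, adjusted p = 0.0661) and 24.1, 18.3, 22.2 and 57.7 CPM with the inhibitor (-0.54 ± 0.50, adjusted p = 0.503), above the LFD range in all 8 libraries. Without HFD replicate 2, the decrease of Cyp2a22 with the siRNA passed the test (adjusted p = 0.0431). Cyp2b13 gave log2 fold changes of 0.56 ± 0.83 with the siRNA (adjusted p = 0.717) and -1.50 ± 0.92 with the inhibitor (adjusted p = 0.296). Cyp2a4 was at 72.6, 3.62, 6.48 and 2.09 CPM with the siRNA and 2.28, 3.93, 1.54 and 15.6 CPM with the inhibitor. HFD + siRNA replicate 1 alone stood above the HFD libraries, and without it the log2 fold change of Cyp2a4 with the siRNA turned from 0.67 to -1.74 (adjusted p = 0.150), neither of which passed the test.

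The Cyp2c subfamily, whose members oxidize arachidonic acid, retinoids and many drugs, moved in both directions on the high-fat diet: of 13 members tested, 2 were higher and 7 lower than in LFD. The 2 that rose are closest to each other in sequence, with 10.97% of the 50-base words of Cyp2c39 also found in Cyp2c38. Cyp2c38 was at 16.01, 31.3, 21.3 and 30.6 CPM in LFD and 61.5, 59.9, 107 and 98.6 in HFD (log2 fold change 1.72 ± 0.27, adjusted p = 0.000761), and Cyp2c39, a retinoic acid hydroxylase, at 0.883, 0.824, 0.428 and 1.45 and 2.86, 3.15, 4.84 and 4.99 CPM (2.15 ± 0.37, adjusted p = 0.00140), without overlap between the groups in either gene. Among those that fell, Cyp2c23, an arachidonic acid epoxygenase, had the groups far apart, with 242, 242, 249.7 and 253 CPM in LFD and 122, 92.0, 133 and 119 in HFD (log2 fold change -1.08 ± 0.11, adjusted p = 3.26e-05). Cyp2c55, which forms hydroxylated arachidonic acid, was at 4.15, 5.04, 2.51 and 6.20 and 1.26, 1.93, 2.01 and 1.64 CPM (-1.38 ± 0.29, adjusted p = 0.00433). Cyp2c70, the enzyme that forms muricholic acids from chenodeoxycholic acid in mice, was at 323, 333, 311 and 299 and 267, 160.3, 219.8 and 221 CPM (-0.54 ± 0.17, adjusted p = 0.0315). Its call was lost in 6 of the 8 fits that each left out 1 library, with adjusted p up to 0.0871.

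The other 4 Cyp2c genes that fell were Cyp2c69 (log2 fold change -3.30 ± 0.83), Cyp2c40 (-2.92 ± 0.68), Cyp2c54 (-1.23 ± 0.34) and Cyp2c67 (-0.91 ± 0.20). Cyp2c54 shares 25.7% of its words with other genes, most of them with the more abundant Cyp2c50, and the sum of Cyp2c37, Cyp2c50 and Cyp2c54 was 379, 941, 1059.5 and 1119 CPM in LFD and 678, 435, 732 and 736 in HFD, with overlap, as LFD replicate 1 lay below every HFD library. Cyp2c40 and Cyp2c69 are low genes that are predominant in females, with 3.40 and 1.09 CPM in LFD and 0.446 and 0.102 CPM in HFD, and their direction on the high-fat diet was the opposite of that of Cyp2b9 and Cyp2a4. Cyp2c40, Cyp2c67, Cyp2c68 and Cyp2c69 share between 43.3% and 60.3% of their 50-base words with other genes, mostly with each other, so that their reads can be divided wrongly. Summed over these 4 genes, the level was 298, 455, 393 and 469 CPM in LFD and 259, 246, 271 and 297 in HFD. Cyp2c29, an arachidonic acid epoxygenase and the most abundant member of the subfamily per kilobase, was at 556, 1113, 836 and 1115 CPM in LFD and 552, 519, 609 and 626 in HFD, and its log2 fold change of -0.65 ± 0.24 had an adjusted p of 0.0659. The LFD libraries other than replicate 1 were all above the HFD range for this gene. It passed the test without LFD replicate 1 (adjusted p = 0.0273), with DESeq2 (0.0295), with the offsets for GC content and length (0.0163) and with the replicate block (0.0438).

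Cyp3a11, the main drug-metabolizing Cyp3a enzyme of mouse liver and a target of PXR, was lower on the high-fat diet. It was at 1983, 3978, 2286 and 3002 CPM in LFD and 1388, 1111, 1211 and 1053 in HFD, without overlap (log2 fold change -1.24 ± 0.23, adjusted p = 0.00245). The other 3 tested Cyp3a genes did not pass the test, with log2 fold changes of -0.04 ± 0.13 for Cyp3a13, -0.24 ± 0.18 for Cyp3a25 and -0.12 ± 0.29 for Cyp3a59. Cyp2f2, which bioactivates naphthalene and is expressed in periportal hepatocytes, fell from 954, 875, 1067 and 931 CPM to 408, 331, 389.8 and 347 CPM (log2 fold change -1.37 ± 0.18, adjusted p = 0.000172), and the groups were far apart. Cyp1a2, which metabolizes caffeine and aromatic amines, was at 304, 442, 488 and 544 and 365, 199.97, 241 and 290.0 CPM (-0.70 ± 0.18, adjusted p = 0.0161), with HFD replicate 1 inside the LFD range, and missed the threshold in the fit of only these 2 groups (adjusted p = 0.0519). Cyp1a1 and Cyp1b1, the AHR targets that are mainly expressed outside hepatocytes or after induction, stayed at or below 1.15 and 1.72 CPM in these libraries and did not pass the test (log2 fold changes -0.84 ± 0.40 and 0.07 ± 0.31). Cyp1a1 was at 0.227, 1.15, 0.958 and 0.765 CPM in LFD and 0.470, 0.380, 0.487 and 0.376 in HFD, and passed the test without LFD replicate 1 (log2 fold change -1.12, adjusted p = 0.0330). Of the 8 tested Cyp2d genes, the family of human CYP2D6, Cyp2d11 (-1.03 ± 0.33) and Cyp2d22 (-0.34 ± 0.10) were lower. Cyp2e1 was higher in the mean without passing the test (log2 fold change 0.58 ± 0.21, adjusted p = 0.0676), and passed it with DESeq2 (adjusted p = 0.0298), without LFD replicate 4 (0.0296) and without HFD replicate 2 (0.0395). The 3 tested Cyp2j genes gave no call. Cyp2g1, Cyp2s1 and Cyp2j9 were tested and passed in none of the 4 comparisons, at mean levels of at most 0.578, 1.26 and 8.94 CPM in a group.

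The counts for the diet comparison were 6 higher and 13 lower without LFD replicate 1. Without HFD replicate 3 the number of lower members was 7 in place of 12, and the call of Cyp1a2 was among those lost (adjusted p = 0.0555).

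The comparison of HFD + siRNA with HFD asks what changes when hepatocytes make less KHK. Cyp2c23 had the lowest adjusted p of the members. It was at 270.1, 247, 259.5 and 223 CPM with the siRNA beside 116 CPM in HFD and 247 CPM in LFD (log2 fold change 1.10 ± 0.11, adjusted p = 5.88e-05), and every siRNA library was above every HFD library. Cyp1a2 was at 414, 518, 522 and 486 CPM, again above all HFD libraries (log2 fold change 0.82 ± 0.18, adjusted p = 0.00996). Cyp2d40 was at 47.3, 53.4, 53.2 and 58.6 CPM beside 27.7, 45.5, 26.5 and 29.3 in HFD (0.72 ± 0.19, adjusted p = 0.0256), Cyp2f2 at 673, 547, 549.7 and 555 CPM (0.65 ± 0.18, adjusted p = 0.0248), and Cyp2d26 at 788, 756, 861 and 887 CPM beside 661, 567, 631 and 661 (0.39 ± 0.11, adjusted p = 0.0288).

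The 4 members that were lower with the siRNA were Cyp3a11, Cyp2c38, Cyp2c39 and Cyp2r1. Cyp3a11 was at 530.0, 719, 683 and 711 CPM, below every HFD library (log2 fold change -0.85 ± 0.23, adjusted p = 0.0265), so that it was lower in HFD than in LFD and lower again with the siRNA. Cyp2c38 was at 38.4, 37.1, 41.7 and 45.7 CPM (-1.004 ± 0.26, adjusted p = 0.0226) and Cyp2c39 at 2.26, 1.83, 1.95 and 1.13 CPM (-1.15 ± 0.35, adjusted p = 0.0411), both below every HFD library. With the replicate block the call of Cyp2c39 ended (log2 fold change -1.08, adjusted p = 0.0643). Cyp2r1, a vitamin D 25-hydroxylase, was at 7.31, 8.96, 8.34 and 6.53 CPM beside 10.3, 12.3, 11.7 and 11.7 in HFD (-0.57 ± 0.13, adjusted p = 0.0105). Cyp2e1 did not overlap between the groups either, with 3199.7, 3906, 3512 and 2866 CPM beside 5901, 3929, 5114 and 6191, and its log2 fold change of -0.65 ± 0.21 had an adjusted p of 0.0579. It passed the test with DESeq2 (adjusted p = 0.0160), in the fit of only these 2 groups (0.0211), with at least 10 counts in every library (0.0483) and without HFD replicate 2 (0.0359). With offsets that remove trends with GC content and transcript length, the calls of Cyp3a11, Cyp2c38, Cyp2c39, Cyp2f2 and Cyp2d26 ended (adjusted p = 0.110, 0.122, 0.0882, 0.05995 and 0.165), and Cyp3a13 and Cyp2e1 were called (adjusted p = 0.0114 and 0.0434). Leaving out 1 library gave between 2 and 5 higher and between 1 and 6 lower members: 2 higher without HFD replicate 3, HFD replicate 4 or HFD + siRNA replicate 4, 3 without HFD + siRNA replicate 1 or 3, 1 lower without HFD replicate 3, and 2 lower without HFD replicate 4 or HFD + siRNA replicate 1, 3 or 4. By gene, the calls of Cyp2c39 and Cyp2d26 were lost in 6 of these 8 fits, those of Cyp2d40, Cyp2f2 and Cyp3a11 in 5 and that of Cyp2c38 in 3, with adjusted p up to 0.121.

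The comparison of HFD + Inhib with HFD asks what changes during treatment with the KHK inhibitor, under which Khk transcripts were lower as well, as given above. Cyp2a5 showed the largest decrease, to 56.8, 64.8, 61.7 and 163 CPM from 391, 192, 370.4 and 701 CPM in HFD, 4.77-fold lower (log2 fold change -2.25 ± 0.44, adjusted p = 0.00202). All inhibitor libraries were below the HFD range, and replicate 4 was apart from the other 3. Cyp2d40 was at 11.4, 11.02, 5.81 and 12.1 CPM, 3.20-fold lower (-1.68 ± 0.20, adjusted p = 2.86e-05), Cyp2c70 at 88.1, 115, 101 and 92.0 CPM (-1.13 ± 0.17, adjusted p = 0.000187) and Cyp1a2 at 114, 157, 120.4 and 133 CPM (-1.06 ± 0.19, adjusted p = 0.000781), none of them overlapping with HFD. Cyp2c70 and Cyp1a2 had been lower in HFD than in LFD and were lower again with the inhibitor. Cyp2c37, which forms hydroxylated arachidonic acid, was at 14.1, 68.3, 38.9 and 53.3 CPM beside 140.4, 56.1, 152 and 158 in HFD (-1.54 ± 0.45, adjusted p = 0.0233), where HFD replicate 2 overlapped with the inhibitor libraries and 5 of the 8 fits without 1 library lost the call, with adjusted p up to 0.0601. The other decreases were in Cyp3a59 (log2 fold change -1.05 ± 0.30), Cyp2c50 (-0.93 ± 0.29), Cyp2c68 (-0.75 ± 0.17), Cyp2d10 (-0.59 ± 0.13), Cyp2d13 (-0.59 ± 0.14) and Cyp2a12 (-0.39 ± 0.09). Cyp3a59 shares 26.8% of its 50-base words with the far more abundant Cyp3a25, so that its reads can be divided wrongly. Averaged over all libraries, Cyp3a59 was at 13.4 CPM and Cyp3a25 at 355 CPM. The sum of both genes was 356 ± 60.1 CPM in HFD and 368 ± 44.3 with the inhibitor (mean ± SD, n = 4). Cyp3a59 is too small a part of this sum for the sum to show whether it fell.

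The members that rose with the inhibitor were Cyp3a13, Cyp2j5, Cyp2c23 and Cyp2j6. Cyp3a13 was at 166, 184, 136 and 159 CPM beside 105, 74.9, 100.4 and 115 in HFD (log2 fold change 0.70 ± 0.13, adjusted p = 0.00133). Cyp2j5, an arachidonic acid epoxygenase, was at 736, 809.8, 909 and 808 CPM beside 536, 545, 632 and 592 (0.50 ± 0.13, adjusted p = 0.0109), and its relative Cyp2j6 at 70.9, 71.7, 87.5 and 65.8 CPM beside 50.7, 61.2, 63.6 and 52.5 (0.38 ± 0.12, adjusted p = 0.0446), without overlap in these 3 genes. The call of Cyp2j6 was lost in 6 of the 8 fits without 1 library (adjusted p up to 0.144). Cyp2c23 was at 177, 178, 158 and 133 CPM, between its HFD and LFD levels (0.47 ± 0.11, adjusted p = 0.00766), and HFD replicate 3 was level with the lowest inhibitor library. Cyp3a11 was at 767, 1619.9, 1725 and 1417 CPM beside 1191 in HFD and 2812 in LFD, with a log2 fold change versus HFD of 0.22 ± 0.23, adjusted p = 0.575. Cyp2c29 was lower in the mean without passing the test (-0.54 ± 0.24, adjusted p = 0.129). It passed with the replicate block (0.0361), with the GC content and length offsets (0.0418) and without HFD + Inhib replicate 2 (0.0122).

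Hepatocyte markers moved with the inhibitor group as well. Of the 5 in the table, 3 were lower than in HFD (log2 fold changes Alb -0.77 ± 0.13, Ttr -0.93 ± 0.12 and Cps1 -0.53 ± 0.14), and the sum of the 5 was 39913 ± 1594 CPM beside 65192 ± 6894 in HFD and 70050.2 ± 5119 in HFD + siRNA (mean ± SD, n = 4). The adipocyte list was at 16.9 to 52.4 CPM in the inhibitor libraries and 0.797 to 7.81 in HFD, almost all of it Cfd, the 1 gene of its 5 that was tested. Of 6 lymphocyte markers 3 were lower with the inhibitor, at a summed level of at most 2.30 CPM. Their part in the P450 differences was not tested.

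**Figure D4:**
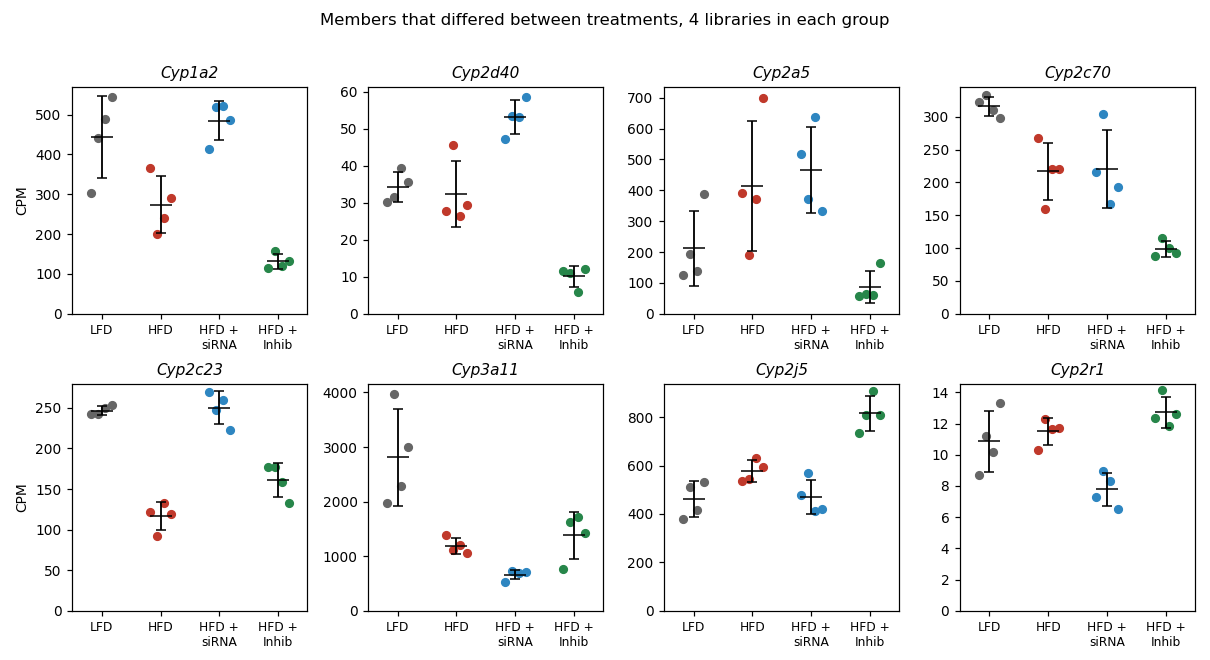
CPM in each of the 4 libraries of each group (points) with mean and SD (black) for 8 members, on axes that start at 0. Cyp1a2, Cyp2d40, Cyp2a5 and Cyp2c70 are lowest in HFD + Inhib, Cyp2c23 has its lowest mean in HFD, Cyp3a11 and Cyp2r1 are lowest in HFD + siRNA, and Cyp2j5 is highest in HFD + Inhib.

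Set directly against each other, the inhibitor and the siRNA differed in 24 of 44 members. Most of the Cyp2d subfamily differed: 7 of its 8 tested members were lower with the inhibitor than with the siRNA, without overlap between the groups, with log2 fold changes from -2.40 ± 0.21 for Cyp2d40 to -0.45 ± 0.13 for Cyp2d10. Cyp2d40 was at 10.1 CPM with the inhibitor and 53.1 with the siRNA, 5.27-fold lower (adjusted p = 5.79e-07), and Cyp2d9, a testosterone 16-alpha-hydroxylase of male liver, was at 619, 666, 516 and 398 CPM with the inhibitor and 677, 1036, 949.6 and 1105 with the siRNA (-0.78 ± 0.20, adjusted p = 0.00789). The member not called was Cyp2d12 (-0.69 ± 0.38, adjusted p = 0.173). Cyp2d10 and Cyp2d11 share 22.9% and 26.9% of their 50-base words with each other. Averaged over all libraries, Cyp2d11 was at 0.394 CPM and Cyp2d10 at 494 CPM. Reads of Cyp2d10 can therefore be assigned to Cyp2d11, and their part in the level of Cyp2d11 was not tested. Cyp2d9 shares 21.8% of its words with other genes, and the share for Cyp2d13 is not known. The call of Cyp2d10 ended with the GC content and length offsets (adjusted p = 0.0649). Cyp2d10 was at 573, 549, 477 and 522 CPM in HFD, 473, 489, 486 and 487 with the siRNA and 363, 433, 288 and 328 with the inhibitor. Among the textbook receptor targets, Cyp2b10 was at 0.475, 1.60, 2.20 and 2.93 CPM with the siRNA and 0.530, 1.28, 0.259 and 0.720 with the inhibitor, with overlap, and missed the threshold (-1.39 ± 0.57, adjusted p = 0.0700), while it passed with DESeq2 (0.0335), without HFD + siRNA replicate 1 (0.0229) and without HFD + Inhib replicate 2 (0.0355). Cyp1a1 (-1.001 ± 0.42, adjusted p = 0.0733) and Cyp1b1 (0.26 ± 0.31, adjusted p = 0.545) did not pass. Cyp2f2 missed the threshold as well (-0.43 ± 0.18, adjusted p = 0.0687). It passed with the replicate block (0.0183) and without HFD + Inhib replicate 1 (0.000481).

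Cyp1a2 was 3.70-fold lower with the inhibitor than with the siRNA (log2 fold change -1.89 ± 0.19, adjusted p = 2.56e-06), Cyp2a5 5.37-fold (-2.42 ± 0.45, adjusted p = 0.000649) and Cyp2c37 3.56-fold (-1.83 ± 0.45, adjusted p = 0.00510). Lower as well were Cyp2c50, Cyp2c54, Cyp2c29, Cyp2c70 and Cyp2c23 in the Cyp2c subfamily, Cyp2a12, and Cyp2u1, a hydroxylase of long-chain fatty acids, with log2 fold changes from -1.40 ± 0.29 for Cyp2c50 to -0.41 ± 0.09 for Cyp2a12. In the other direction, Cyp3a11 was higher with the inhibitor (log2 fold change 1.07 ± 0.23, adjusted p = 0.00236), as were Cyp2e1 (0.91 ± 0.21, adjusted p = 0.00389), Cyp2j5 (0.80 ± 0.13, adjusted p = 0.000205), Cyp2r1 (0.71 ± 0.13, adjusted p = 0.000548) and Cyp2j6 (0.56 ± 0.12, adjusted p = 0.00265), each without overlap. Cyp2c38 (0.77 ± 0.26, adjusted p = 0.0322) and Cyp3a13 (0.38 ± 0.13, adjusted p = 0.0353) were higher with overlap, and both calls ended with the GC content and length offsets (adjusted p = 0.393 and 0.765). Both calls were also lost in 6 of the 8 fits without 1 library, with adjusted p up to 0.0955 and 0.0872. Cyp2b9 and Cyp2a22, which were among the members increased in HFD, gave log2 fold changes of 0.42 ± 0.64 and 0.97 ± 0.51 between the treatments and did not pass the test. In the other direction, Cyp2a4 gave -1.85 ± 0.93 (adjusted p = 0.137) and Cyp2b13 -2.06 ± 0.91 (adjusted p = 0.0963), and neither passed. Of the hepatocyte markers 4 of 5 were lower with the inhibitor than with the siRNA (Ttr -1.18 ± 0.12 being furthest from 0), as were 4 of 6 macrophage, 2 of 6 stellate and 2 of 6 lymphocyte markers, and their part in the P450 differences was not tested.

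The proteins that P450 enzymes need were followed as lists of other genes. Counts of these and the following lists stand beside the shares of all genes called, 18.4% in HFD versus LFD, 11.7% with the siRNA and 18.2% with the inhibitor, and with so few genes a list's count is a description only. Por, the reductase that supplies electrons to all microsomal P450 enzymes, was at 159.6, 108, 172 and 103 CPM in LFD, 129, 112, 161 and 188 in HFD, 193, 176, 229.9 and 169 with the siRNA and 496, 347, 247 and 359 with the inhibitor. Every inhibitor library was above all other libraries, 2.46-fold over HFD (log2 fold change 1.30 ± 0.22, adjusted p = 0.000540). Of the 7 redox partner and support genes, 3 were higher with the inhibitor than in HFD, the others being Pgrmc2, a heme-binding P450 partner (0.75 ± 0.10, adjusted p = 7.82e-05), and Ephx1, the microsomal epoxide hydrolase (0.69 ± 0.13, adjusted p = 0.00164). On the high-fat diet Ephx1 alone of the 7 was lower (-0.60 ± 0.13, adjusted p = 0.00640), and with the siRNA Pgrmc2 alone (-0.44 ± 0.10, adjusted p = 0.0109). The 12 genes of heme synthesis and breakdown gave 1 higher and 2 lower in HFD versus LFD, 2 higher with the siRNA, and 2 higher and 1 lower with the inhibitor. With the inhibitor Cpox rose (0.53 ± 0.12, adjusted p = 0.00541) and Ppox, the next enzyme of the pathway, fell (-0.41 ± 0.10, adjusted p = 0.0101). Alas1, the rate-limiting enzyme of heme synthesis, was at 139.6, 79.5, 81.4 and 131 CPM in HFD and 274, 414, 168 and 279.9 with the inhibitor, without overlap between these groups, and its log2 fold change of 1.40 ± 0.58 had an adjusted p of 0.112.

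Of the 21 receptors and regulators tested, 4 were higher in HFD than in LFD and none lower, in all close to the 18.4% of all genes called, among them Ahr (0.78 ± 0.14, adjusted p = 0.00174) and Ppara, the fatty acid receptor (0.81 ± 0.13, adjusted p = 0.000757). Ahr was at 44.2, 45.0, 41.1 and 48.2 CPM in LFD, 62.0, 82.6, 84.7 and 77.9 in HFD, 70.9, 64.6, 76.7 and 94.99 with the siRNA and 31.9, 29.1, 36.8 and 44.6 with the inhibitor, so that it was high in HFD and HFD + siRNA and low in the other groups (log2 fold change with the inhibitor -1.11 ± 0.14, adjusted p = 4.48e-05). With the siRNA 1 regulator was lower, Arnt, the partner of AHR (-0.40 ± 0.10, adjusted p = 0.0163). With the inhibitor, Nr1i2, which encodes PXR, was higher (0.65 ± 0.09, adjusted p = 8.4e-05), and Ahr, Foxa3 (-0.77 ± 0.22, adjusted p = 0.0232) and Nr0b2 (-0.79 ± 0.23, adjusted p = 0.0227) were lower. Nr1i3, which encodes CAR, was at 81.5, 93.4, 127 and 89.4 CPM in the 4 groups and did not pass the test in any comparison.

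**Figure D5:**
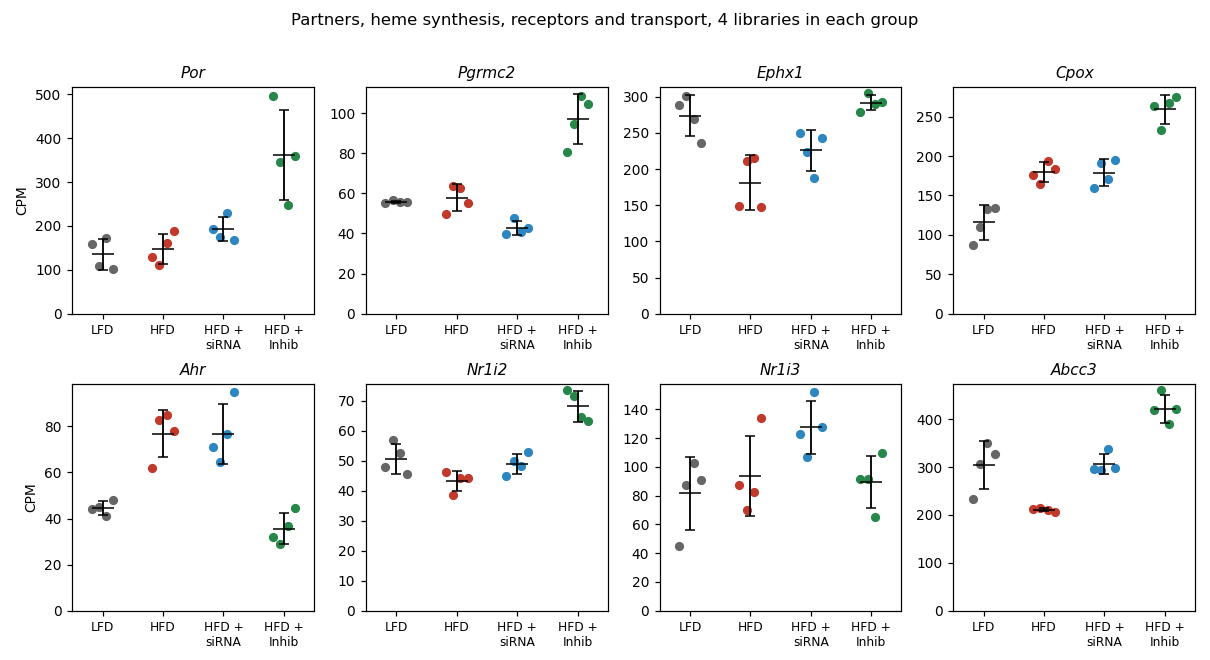
CPM in each of the 4 libraries of each group (points) with mean and SD (black), on axes that start at 0, for Por, Pgrmc2, Ephx1, Cpox, Ahr, Nr1i2, Nr1i3 and Abcc3. Por, Pgrmc2, Cpox, Nr1i2 and Abcc3 are highest in HFD + Inhib, and Ahr is high in HFD and HFD + siRNA.

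Genes outside the 3 families that CAR or PXR are known to induce (11 of 12 tested) gave 0 higher and 3 lower in HFD versus LFD, 2 and 1 with the siRNA, and 4 and 2 with the inhibitor. The carboxylesterase Ces2a fell on the high-fat diet from 306 to 81.8 CPM (log2 fold change -1.90 ± 0.13, adjusted p = 1.59e-06) and stayed at 89.8 and 95.1 CPM in the treated groups. With the inhibitor, the transporters Abcc3 (1.001 ± 0.11, adjusted p = 6.95e-06) and Abcc4 (1.09 ± 0.18, adjusted p = 0.000623), the carboxylesterase Ces2c (0.80 ± 0.24, adjusted p = 0.0256) and the stress gene Gadd45b (2.21 ± 0.41, adjusted p = 0.00140) rose, while the transporter Slco1a4 (-2.59 ± 0.39, adjusted p = 0.000237) and the glutathione transferase Gstm3 (-1.79 ± 0.27, adjusted p = 0.000185) fell. The 8 members usually linked to CAR gave 3 higher and 1 lower in HFD versus LFD, 0 with the siRNA, and 2 lower with the inhibitor. The 4 tested members linked to PXR gave 1 lower, 1 lower, and 1 higher and 1 lower in the same comparisons, and the 3 linked to AHR 1 lower, 1 higher and 1 lower, in each case Cyp1a2. Of 3 tested AHR targets outside the families, Ugt1a6a was lower with the inhibitor (-0.38 ± 0.09, adjusted p = 0.00612).

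Genes that differ between the sexes were counted as well, since Cyp2b9, Cyp2b13 and Cyp2a4 are predominant in females. Of 9 male-biased genes outside the families in the table, all tested, 8 were lower in HFD than in LFD, among them Mup20, a major urinary protein (-1.23 ± 0.29, adjusted p = 0.00835), Hsd3b5, a steroid dehydrogenase (-2.51 ± 0.71, adjusted p = 0.0224), and Elovl3, a fatty acid elongase (-2.18 ± 0.48, adjusted p = 0.00608). Relative to HFD, 2 of the 9 were higher with the siRNA (Elovl3 and Susd4), 2 were higher with the inhibitor (Elovl3 and Cyp4a12a) and 1 was lower, namely Hsd3b5, at 3.25, 2.06, 3.17 and 0.480 CPM beside 32.6, 57.2, 7.06 and 14.3 in HFD. Of the 5 tested female-biased members, 3 were higher in HFD. These are Cyp2b9, Cyp2b13 and Cyp2a4 themselves, which prompted the count, so that it restates their increases. The 2 lower in HFD were Cyp2c40 and Cyp2c69. Of the 4 male-biased members, Cyp2c54 alone was lower. The female-biased genes outside the families were mostly too low to test, 2 of 6 being tested with no call.

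For position along the lobule, 3 of 8 pericentral genes outside the families were higher in HFD than in LFD: Glul, the glutamine synthetase (1.23 ± 0.23, adjusted p = 0.00243), Oat (1.31 ± 0.25, adjusted p = 0.00256) and Slc1a2 (1.11 ± 0.19, adjusted p = 0.00152). Cyp2e1 and Cyp1a2, which are themselves pericentral, gave 0.58 ± 0.21 (adjusted p = 0.0676, not called) and -0.70 ± 0.18 (adjusted p = 0.0161) in that comparison. The periportal member Cyp2f2 gave -1.37 ± 0.18 (adjusted p = 0.000172). The other members were not sorted by position. With the inhibitor, 3 of the 8 were lower than in HFD, Lgr5, Slc1a2 and Rnf43, while Cyp1a2 fell and Cyp2e1 did not. Of 7 periportal genes, 1 was lower in HFD (Hal, -0.78 ± 0.19, adjusted p = 0.0120), 1 lower with the siRNA (Cdh1, -1.30 ± 0.21, adjusted p = 0.00182) and 2 lower with the inhibitor. The remaining cell type markers gave few calls in HFD versus LFD, namely 1 higher of 5 tested for cholangiocytes, 1 higher of 6 for stellate cells, 1 higher each of 1 tested for adipocytes and intestine (Fabp2), 1 lower of 5 for hepatocytes (Apoa1), and 0 of 6 each for macrophages, endothelial cells and lymphocytes. None of these lists gave a call with the siRNA, and with the inhibitor, beside the lists given above, there was 1 lower for macrophages, 1 higher for endothelial cells, 2 lower for stellate cells and 1 higher for intestine (Fabp2).

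Between the inhibitor and the siRNA, where 33.8% of all genes were called (17.3% higher and 16.6% lower), the lists gave 4 higher and 0 lower of 7 redox partner genes, 2 and 4 of 12 heme genes, 3 and 6 of 21 receptors and regulators, 4 and 2 of 11 CAR and PXR targets outside the families, and 1 and 1 of 3 AHR targets. Among the members, 3 of 8 linked to CAR were lower, 2 of 4 linked to PXR were higher, and all 4 male-biased ones were lower (Cyp2d9, Cyp2u1, Cyp2c29 and Cyp2c54), while the 5 tested female-biased ones gave no call. Of the 9 male-biased genes outside the families 1 was higher and 3 were lower, of the 8 pericentral genes 5 were lower, and of the 7 periportal genes 1 was higher and 2 were lower. In the remaining marker lists, 1 endothelial gene was higher and 1 lower, Cfd was higher, and cholangiocyte and intestine markers gave no call.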

How the data were processed

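The deposited table holds RSEM expected counts per gene for 16 mouse liver libraries, which the authors made by alignment with STAR and quantification with RSEM on mm39 per the labels (versions not given in the sources used here). The study's methods describe a probe-based assay for liver, while 15.1% of the deposited values are fractional, so they were read as estimated counts and rounded. Library totals were 24317111 to 35820234 counts. Replicate libraries of a group differed beyond counting noise (chi-square per gene 20.5 to 152 over 24 pairs), and none was a duplicate. The labels give separate mice, 4 per group.

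Genes were filtered with filterByExpr (minimum count 10, minimum total 15), which left 18335 of 33142 genes with any count and 44 of the 59 members. One quasi-likelihood model of all 16 libraries was fitted in edgeR 4.0.16 (R 4.3.3, limma 3.58.1) with TMM scaling (factors 0.929 to 1.09) and gave 4 contrasts, with Benjamini-Hochberg adjustment over all genes tested and a threshold of 0.05. In counts simulated for HFD + Inhib versus HFD over 18335 genes, the same steps recovered 31 of 67 genes changed 1.5-fold, 51 of 67 changed 2-fold and 62 of 66 changed 4-fold, with 11 false calls. None of the changed genes was taken from the lowest levels. The data gave 3339 calls in this comparison, far more than the genes changed in the simulation, so the recovery does not carry over directly.

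Alternatives were DESeq2 1.42.0, RLE size factors, no filter, at least 10 counts in every library, only the 2 compared groups, a replicate block, offsets for GC content and length (values for 86.5% of tested genes and 43 of 44 members, all but Cyp2d13), stricter thresholds, and leaving out each library. Shared 50-base words, lengths, GC content and promoters come from GRCm38 annotations, so no mm39 coordinates are given. The standard error of a log2 fold change is its size divided by the root of the quasi-likelihood F statistic. It includes the spread between mice and carries no information beyond the test. The floor of 3 counts covers counting error only.

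The members and gene lists were chosen with earlier results of these data known. Members chosen by rule were, in each comparison, the 4 largest increases and 4 largest decreases among called members whose groups did not overlap and whose average log2 CPM was 1 or more, the 8 highest per kilobase, and 6 linked to receptors, 26 in all, of which the low Cyp1a1, Cyp1b1 and Cyp2b10 are given more briefly. Other members were named to complete a count, and Cyp2b13, Cyp2a12 and the promoter pairs were chosen after their values were seen.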

Additional observations from a re-analysis of the deposited data

Results flagged for a closer look

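Among the 104 sets of 4 libraries (26 named members in 4 groups), 7 had a single library far from the other 3, past Dixon's 95% limit for the gap to the nearest library as a share of the whole range on the log2 CPM scale, and chance gives about 1 in 20. The scale matters: on the CPM scale, tried after the values were seen, 9 sets passed this limit, 3 of them among these 7 (Cyp2a5 and Cyp2d40 in HFD + Inhib, and Cyp2f2 in HFD + siRNA). Cyp2a5 was at 163 CPM in HFD + Inhib replicate 4 and between 56.8 and 64.8 CPM in the others. Cyp2c37 was at 77.4 CPM in LFD replicate 1 beside 225 to 259 CPM, and at 56.1 CPM in HFD replicate 2 beside 140.4 to 158 CPM. Cyp2c38 was at 35.4 CPM in HFD + Inhib replicate 1 beside 74.5 to 85.8 CPM. Cyp2d40 was at 5.81 CPM in HFD + Inhib replicate 3 beside 11.02 to 12.1 CPM. Cyp2f2 was at 673 CPM in HFD + siRNA replicate 1 beside 547 to 555 CPM, and Cyp3a11 was at 530.0 CPM in that library beside 683 to 719 CPM.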

How the results depend on the processing

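Of the 47 calls among the 26 named members, RLE size factors kept 47, the replicate block 46, the fit of only the 2 compared groups 46 (all but Cyp1a2 in HFD versus LFD, adjusted p = 0.0519), no filter 45 and the GC content and length offsets 39, while DESeq2 kept 46 of 46 and the filter of at least 10 counts in every library 44 of 44. No call turned its direction under these alternatives. The call that ended with the replicate block was Cyp2c39 in HFD + siRNA versus HFD (adjusted p = 0.0643). Leaving out 1 library ended 60 of 376 calls, spread over 12 results. Among the 57 results not called, the replicate block called 3, the fit of only the 2 compared groups 2, the offsets 6, the filter of at least 10 counts in every library 1 of 40, DESeq2 4 of 54, and leaving out 1 library 16 of 456 values. The 3 called with the block were Cyp2c29 in HFD versus LFD (adjusted p = 0.0438) and with the inhibitor (0.0361), and Cyp2f2 between the treatments (0.0183).

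The counts moved by more than 1.5 times as follows. In HFD versus LFD, 3 members in place of 7 were higher with at least 10 counts in every library, where 33 members were tested and genes near 0 in LFD drop out by construction, and 6 in place of 12 were lower at an adjusted p under 0.01. In HFD + siRNA versus HFD, at 0.01 there were 2 higher in place of 5 and 0 lower in place of 4, and with the GC content and length offsets 2 lower. In HFD + Inhib versus HFD, 2 in place of 4 were higher at 0.01, and 2 when a log2 fold change of 0.5 or more in size was also required. Without 1 library, the counts ranged from 6 to 10 higher and 7 to 13 lower in HFD versus LFD, 2 to 5 higher and 1 to 6 lower with the siRNA, 3 to 4 higher and 8 to 11 lower with the inhibitor, and 5 to 7 higher and 16 to 18 lower between the treatments.

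Correlations of same-numbered libraries between groups ranged from -0.13 to 0.34. The same number gave the highest correlation for some libraries and another number for others, so whether replicate numbers pair the libraries is not settled. With the replicate block the counts were 6 higher and 12 lower, 6 and 3, 4 and 13, and 7 and 18, and the block turned 2 uncalled log2 fold changes in HFD + siRNA versus HFD, Cyp2a4 to -0.41 and Cyp2c70 to -0.0013. With the offsets, uncalled values turned for Cyp2d40 (0.028), Cyp2j6 (-0.085) and Cyp2r1 (-0.091) in HFD versus LFD, for Cyp2j6 with the siRNA (0.043) and for Cyp2r1 with the inhibitor (-0.0053). The cause was not tested.

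Without 1 library, log2 fold changes not called with all libraries crossed 0 for Cyp1b1 (-0.28 to 0.23 in HFD versus LFD, -0.48 to 0.038 with the siRNA, -0.27 to 0.30 with the inhibitor), Cyp2a4 (-1.74 to 1.03 with the siRNA, -3.05 to 0.55 between treatments, where the value of -3.05, without HFD + Inhib replicate 4, passed the test with an adjusted p of 0.0392), Cyp2a5 (-0.066 to 0.53 with the siRNA), Cyp2b9 (-1.02 to 0.35 with the inhibitor, -0.55 to 1.02 between treatments), Cyp2c55 (-0.32 to 0.044 with the inhibitor), Cyp2c70 (-0.19 to 0.14 with the siRNA), Cyp2d40 (-0.30 to 0.00077 in HFD versus LFD), Cyp2f2 (-0.059 to 0.34 with the inhibitor) and Cyp3a13 (-0.11 to 0.074 in HFD versus LFD).

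With 4 mice per group, 1.5-fold changes were often missed in the simulated counts, where far fewer genes changed than were called in the data. Members below about 1 CPM rest on few counts.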
